A study of Mus musculus with 24 samples.

Results

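The transcripts of the histone H3 lysine 4 (H3K4) demethylases and of the proteins that carry them to chromatin were examined in oocytes cultured under 5% O2 and 20% O2. The set holds 8 genes of the 16572 gene names in the RNA-seq table, taken by symbol: the flavin-dependent demethylases Kdm1a and Kdm1b, their partners Rcor1, Rcor3 and Glyr1, and the JmjC demethylases Kdm5a, Kdm5b and Kdm5c. Each has 1 row in the table, and all 8 passed the filter of a mean of at least 1 RPM (reads per 1000000 reads of the column) that left 14704 genes. Both conditions are untreated class IV oocytes, the largest size class, from ovaries at day 7 after birth of mice labelled C57BL/6 Barb, which the study's methods describe as a C57 Black6 background bred with SV129. The cells were released with trypsin and collagenase and grown without follicles on gelatine. Growth took 9 days for the IV 5% O2 oocytes, with a medium change every 24 h, and 14 days for the IV 20% O2 oocytes, with a change every 48 h, so that oxygen, culture time and feeding cannot be told apart. The labels give a size of 60 to 70 µm for both, whereas the study's methods give a lower size range for the IV 20% O2 oocytes, so size may differ with oxygen too. There were 2 total RNA libraries per condition, each from pooled oocytes, but the table holds 1 value per gene and condition. The spread between libraries is therefore unknown, and no difference was tested. Intervals are 95% intervals on reads that cover counting error and compare these libraries rather than the conditions. They are Clopper-Pearson for ratios, Poisson for single levels, and computed on the log scale for a change of a ratio between genes. In another arm of the study, oocytes grown under 20% O2 received 100 µM tranylcypromine, a monoamine oxidase inhibitor that also inhibits the KDM1 enzymes, with or without 15 mM LiCl. The DNA methylation libraries of that arm are not analysed here, so the values describe the targets of the drug in cells that did not receive it.

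Methylation of H3K4 marks promoters and enhancers and keeps the DNA methyltransferase complex of the oocyte away from nucleosomes, so its removal is part of how DNA methylation is laid down during oocyte growth. KDM1A and KDM1B remove monomethyl and dimethyl groups with a flavin cofactor and molecular oxygen. KDM1A acts with the CoREST scaffolds, encoded by Rcor1, Rcor2 and Rcor3, and histone deacetylases, whereas KDM1B binds the nucleosome reader encoded by Glyr1 and is known for its part in setting maternal imprints. The KDM5 enzymes remove trimethyl groups as well, with iron, alpha-ketoglutarate and molecular oxygen.

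Of the 8 genes, 7 have a promoter entry in RefSeq (GRCm38.p6) and Kdm5a has none. The 250 bases before the start are shown for the 2 KDM1 genes and for Glyr1, because the KDM1 genes differed in opposite directions between the conditions. Capitals mark the core that hypoxia-inducible factors bind, ACGTG or GCGTG, on either strand (CACGT and CACGC on the other strand). ACGTG is also part of CACGTG, the E-box, which then holds the core on both strands.
Kdm1a, chr4:136602724-136602973, minus strand: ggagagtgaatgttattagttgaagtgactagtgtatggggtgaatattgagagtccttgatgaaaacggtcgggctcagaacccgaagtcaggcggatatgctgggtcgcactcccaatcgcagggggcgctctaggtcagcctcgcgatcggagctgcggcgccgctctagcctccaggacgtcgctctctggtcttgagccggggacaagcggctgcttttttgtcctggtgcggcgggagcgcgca
Kdm1b, chr13:47043249-47043498, plus strand: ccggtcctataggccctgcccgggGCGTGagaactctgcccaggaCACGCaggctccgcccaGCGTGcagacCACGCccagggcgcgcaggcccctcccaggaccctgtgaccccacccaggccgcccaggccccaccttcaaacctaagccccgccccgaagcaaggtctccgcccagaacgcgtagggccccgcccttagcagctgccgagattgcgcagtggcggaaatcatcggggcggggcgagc
Glyr1, chr16:5049911-5050160, minus strand: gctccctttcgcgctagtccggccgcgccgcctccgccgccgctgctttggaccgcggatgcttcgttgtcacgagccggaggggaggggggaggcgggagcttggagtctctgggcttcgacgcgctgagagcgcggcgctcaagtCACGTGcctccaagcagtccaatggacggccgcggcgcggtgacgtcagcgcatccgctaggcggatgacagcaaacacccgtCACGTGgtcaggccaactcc
The Kdm1a window held neither core, the Kdm1b window held 4 copies of GCGTG, and the Glyr1 window held 2 copies of CACGTG. Of the 7 windows, 3 held a core, the third being that of Kdm5b, against 38.6% of all 32841 windows of this length. GCGTG alone was in 28.2% of all windows and CACGTG in 6.02%. The GC box GGGCGG was in 4 of the 7 windows, with 6 copies at Kdm1b, against 32.7% of all windows. CCAAT was in 4 of the 7, with 1 copy each at Kdm1a and Glyr1, against 33.9%. No window of the 7 held TATAAA, which 12.4% of all windows did. All 7 windows had a ratio of observed to expected CpG of at least 0.6, as 34.0% of all windows did, with 0.99 at Kdm1a, 0.70 at Kdm1b and 1.10 at Glyr1. A match describes the letters only, and no measurement of factor binding or promoter methylation was analysed here.

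Transcripts of both KDM1 genes were abundant, and they differed between the conditions in opposite directions. Kdm1b, the gene of the oocyte-enriched H3K4 demethylase, lies on chromosome 13 (GRCm38, chr13:47043499-47085279, plus strand, 5.50 kb of exonic sequence). Its row held 69989 reads, or 529 RPM, under 5% O2 and 28425 reads, or 695 RPM, under 20% O2. The IV 5% O2 value was thus 0.761 of the IV 20% O2 value (interval 0.751 to 0.772), a log2 difference of -0.39. Log2 differences are on log2(RPM + 1), IV 5% O2 minus IV 20% O2. Kdm1a, which is expressed in most cell types, lies on chromosome 4 (chr4:136550540-136602723, minus strand, 5.18 kb of exons). It had 16549 reads, or 125 RPM, under 5% O2 and 2868 reads, or 70.2 RPM, under 20% O2. Kdm1a was 1.78-fold higher under 5% O2 (interval 1.71 to 1.86), a log2 difference of 0.83. Both directions held with each of the 4 scalings of the columns tried, with log2 differences of 0.51 to 0.83 for Kdm1a and -0.71 to -0.39 for Kdm1b.

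**Figure D1:**
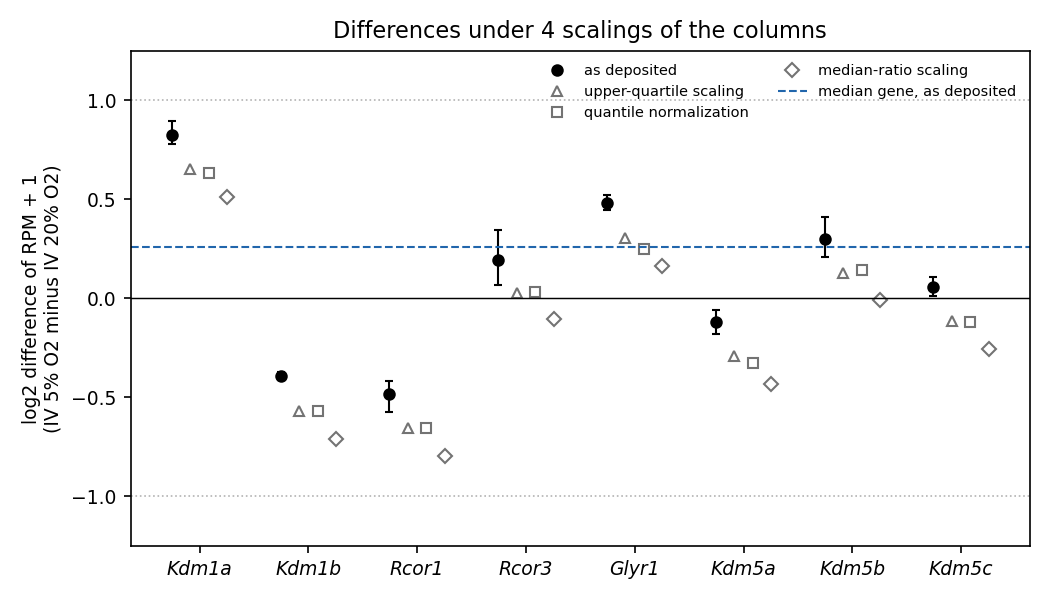
The log2 difference of RPM + 1 (IV 5% O2 minus IV 20% O2) is plotted for the 8 genes as deposited (filled circles, bars showing the 95% counting interval of the read ratio) and with 3 other scalings of the columns. Kdm1a and Glyr1 stay above 0 and Kdm1b, Rcor1 and Kdm5a below it with all 4, whereas Rcor3, Kdm5b and Kdm5c cross it, and no gene reaches the dotted lines at 2-fold.

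These are bulk samples, in which fewer cells of a type and less RNA per cell cannot be told apart. All 15 oocyte markers were in the table, and their summed level was 10632 RPM under 5% O2 and 14415 RPM under 20% O2. Of them 0 were at least 2-fold higher under 5% O2 and 4 lower (18.7% and 9.22% of all genes tested), among them Zp2 at 1537 and 3807 RPM. The oocyte markers did not all go one way, as 6 of the 15 were above 0, the highest at a log2 difference of 0.87. Of 18 theca and stroma markers, 10 were in the table, all 10 higher under 5% O2, with a sum of 45.3 RPM against 5.48 RPM, single values of 0.431 to 16.4 RPM against 0 to 2.30 RPM, and 3 without reads under 20% O2. Cyp17a1 and Lhcgr, which define theca cells, have no row, and Cyp11a1 was at 16.4 and 0.122 RPM. Of 12 granulosa markers, 6 were in the table with a sum of 41.3 and 29.8 RPM, and Amh and Foxl2 have no row. The sums were 17.9 and 21.1 RPM for 3 of 8 macrophage markers, 117 and 284 RPM for 4 of 6 endothelial markers, and 1.32 and 1.57 RPM for 1 of 6 erythroid markers. The endothelial markers did not go one way, as 3 of the 4 were higher under 5% O2, with Tek at 13.8 and 3.40 RPM, and Vwf, which holds most of the sum under 20% O2, was lower at 55.5 and 248 RPM. The part of other cells in the differences of the demethylase and partner genes was not tested.

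The scale on which these differences are read matters. The median of all 14704 genes was itself at a log2 difference of 0.26, and 62.6% of the genes were above 0. The median gene moved to 0.09 with upper-quartile scaling, to 0.06 with quantile normalization and to -0.04 with median-ratio scaling. Relative to the median gene, Kdm1a was at 0.57 and Kdm1b at -0.65. Kdm1a had a log2 difference at or above those of 75.4% of all genes, and Kdm1b at or above those of 22.1%.

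None of the 8 genes was at least 2-fold apart. The number at least 2-fold higher under 5% O2 was 0 of 8, against 18.7% of all genes tested, and the number at least 2-fold lower was 0 of 8, against 9.22%. Over all genes, 67.0% of the differences past 2-fold were higher as deposited and 45.6% with median-ratio scaling, 55.2% with upper-quartile scaling and 48.6% with quantile normalization. The shares of all genes at least 2-fold higher and lower were 11.6% and 13.9% with median-ratio scaling, 14.3% and 11.6% with upper-quartile scaling, 12.0% and 12.7% with quantile normalization, and 8.17% and 4.80% with a pseudocount of 5 RPM. The 8 log2 differences ran from -0.49 for Rcor1 to 0.83 for Kdm1a, with 5 above 0 and 3 above the median gene. Their median was 0.13 as deposited, or -0.13 against the median gene, and it was below 0 with each of the 3 other scalings.

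Per kilobase of exons, the scale on which genes can be compared, Kdm1b had the highest level of the 8 genes in both conditions, with 96.4 RPKM (RPM per exonic kilobase) under 5% O2 and 127 RPKM under 20% O2. These levels ranked Kdm1b at 274 and 156 among the 14391 genes with a length, where rank 1 is the highest level. Kdm1a had 24.2 and 13.5 RPKM, at ranks 2029 and 3126. The reads per kilobase of Kdm1b were 3.99 times those of Kdm1a under 5% O2 (interval 3.92 to 4.05) and 9.34 times under 20% O2 (interval 8.99 to 9.71). With the length of the longest annotated transcript in place of all exons, these ratios were 2.57 and 6.02. Kdm1b made up 79.9% of the summed KDM1 level under 5% O2 and 90.3% under 20% O2. The ratio of Kdm1b to Kdm1a was 0.427 times as high under 5% O2 as under 20% O2 (interval 0.409 to 0.445), a log2 change of -1.23. This comparison, made after the values had been seen, does not depend on the length used or on a scaling factor of a column, and with quantile normalization it was -1.20 on log2(RPM + 1).

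**Figure D2:**
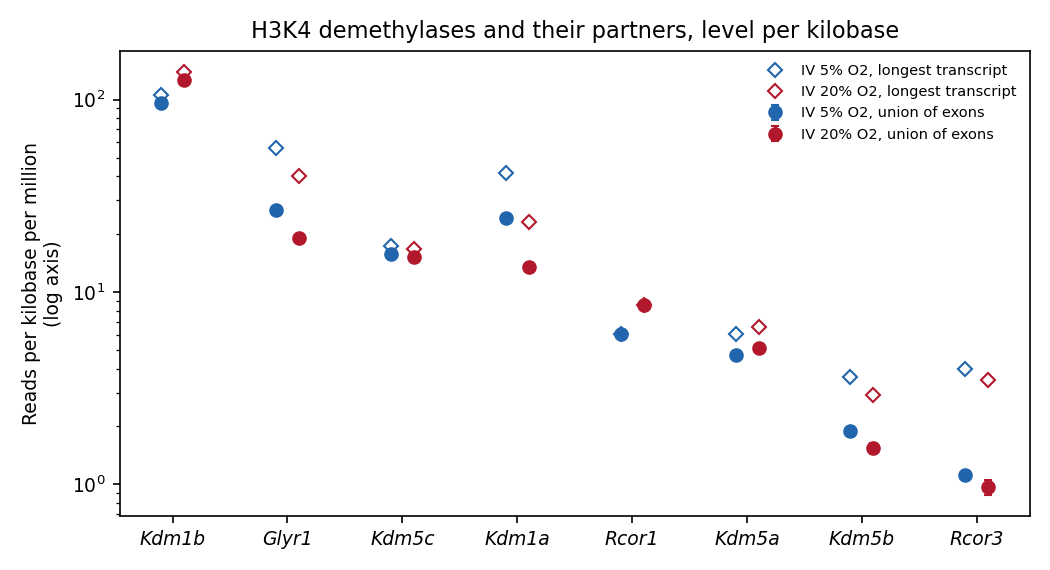
The level of each gene is plotted in RPM per kilobase on a log axis, for IV 5% O2 in blue and IV 20% O2 in red, over the union of exons (filled, with 95% counting intervals mostly smaller than the points) and over the longest transcript (open). Kdm1b is highest in both conditions, at 96.4 and 127 RPKM over the union of exons, and Kdm1a exceeds Kdm5c under 5% O2 but not under 20% O2 on that length.

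The Kdm1b row overlaps another gene and holds some repeated sequence. The 3' end of Kdm1b overlaps Dek, a gene on the opposite strand, over 505 bases or 9.19% of its exonic sequence, and the sources do not state whether strand was used in counting, although the libraries mark it. Dek went the other way, with 98.6 RPM under 5% O2 and 39.7 RPM under 20% O2. Of the 100-base windows of the Kdm1b exons, the length of a read, 3.51% occur again in the genome, whereas none of Kdm1a, Rcor1 or Glyr1 do.

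Among the partners of the KDM1 enzymes, the CoREST genes differed from each other. Rcor1 (chr12:111039351-111115901, plus strand, 5.68 kb of exons) encodes the CoREST scaffold that ties KDM1A to histone deacetylases and to the nucleosome. It had 4561 reads, or 34.5 RPM, under 5% O2 and 1991 reads, or 48.7 RPM, under 20% O2. The IV 5% O2 value was 0.708 of the IV 20% O2 value (interval 0.672 to 0.747), and the log2 difference of -0.49 was -0.80 to -0.49 over the 4 scalings. Rcor1 was thus lower in the condition in which the gene of its enzyme was higher. Rcor3 (chr1:192098546-192138062, minus strand), a CoREST paralogue, had 2003 reads, or 15.2 RPM, under 5% O2 and 537 reads, or 13.1 RPM, under 20% O2. Its log2 difference of 0.19 (interval of the read ratio 0.07 to 0.35) was -0.07 relative to the median gene and turned to -0.11 with median-ratio scaling. Rcor2, the third paralogue and not one of the 8 genes, had 25.4 RPM and 12.7 RPM, a log2 difference of 0.94. Per kilobase, Rcor2 was at 8.05 RPKM under 5% O2, above Rcor1, and at 4.03 RPKM under 20% O2, below it.

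Per kilobase of exons, Rcor1 was at 6.07 RPKM under 5% O2 and 8.57 RPKM under 20% O2. Rcor3 was the lowest of the 8 genes at 1.11 and 0.964 RPKM, whereas Kdm5b was the lowest with the longest transcript. The ratio of Rcor1 to Rcor3 was 5.46 (interval 5.18 to 5.75) and 8.89 (interval 8.07 to 9.79). It is uncertain in size, because the annotated exons of Rcor3 span 13.6 kb but its longest transcript 3.79 kb, and with that length the ratios were 1.52 and 2.47. Antisense genes overlap the exons of Rcor3 too, the longest overlap being 667 bases with Gm26879, or 4.90% of the exons. Kdm1a was 3.98 times as abundant as Rcor1 per kilobase under 5% O2 (interval 3.85 to 4.12) and 1.58 times under 20% O2 (interval 1.49 to 1.67), or 6.81 and 2.70 times with the longest transcripts. The ratio of Kdm1a to Rcor1 was thus 2.52-fold higher under 5% O2 (interval 2.36 to 2.69).

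Glyr1 (chr16:5013909-5049863, minus strand, 8.41 kb of exons) encodes a reader of transcribed chromatin that stimulates KDM1B on nucleosomes. It had 29736 reads, or 225 RPM, under 5% O2 and 6570 reads, or 161 RPM, under 20% O2. Glyr1 was 1.40-fold higher under 5% O2 (interval 1.36 to 1.44), a log2 difference of 0.48 that was 0.22 relative to the median gene and 0.16 to 0.48 over the scalings. The enzyme gene and the cofactor gene therefore differed in opposite directions. Per kilobase, Glyr1 was second to Kdm1b in both conditions with 26.8 and 19.1 RPKM. Kdm1b was 3.60 times as abundant as Glyr1 under 5% O2 (interval 3.55 to 3.65) and 6.62 times under 20% O2 (interval 6.44 to 6.80), a log2 change of -0.88 (interval -0.92 to -0.83). With the longest transcript, the ratios were 1.88 and 3.46.

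**Figure D3:**
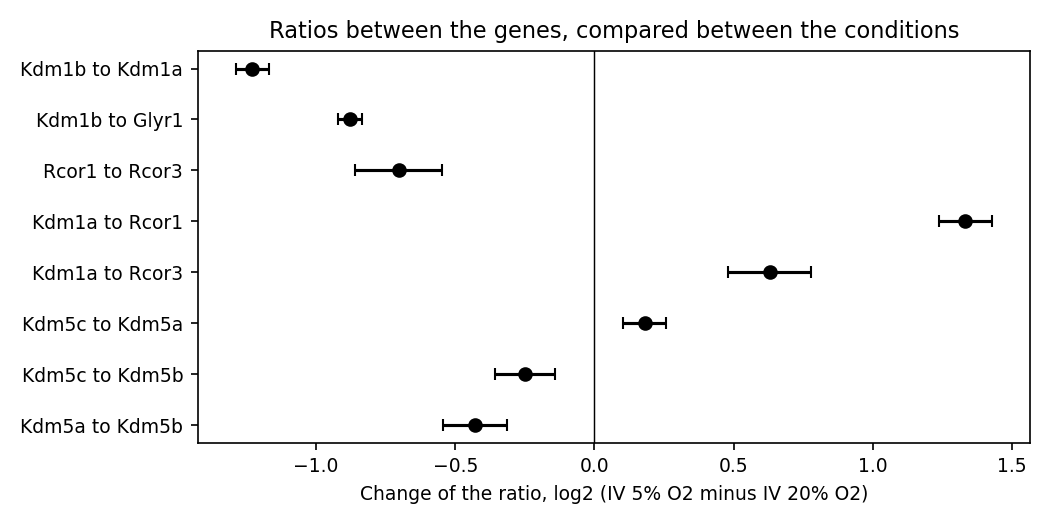
The change of the ratio between 2 genes is plotted on the log2 scale (IV 5% O2 minus IV 20% O2), with 95% intervals from the reads of both genes in both conditions. Kdm1b to Kdm1a, at -1.23, and Kdm1a to Rcor1, at 1.33, lie farthest from 0, and the 3 ratios within the KDM5 family lie between -0.43 and 0.18.

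The log2 differences of the KDM5 genes lay between -0.12 and 0.30, inside the range of those of the KDM1 genes. Kdm5c (chrX:152233020-152274535, plus strand, 7.11 kb of exons), the X-linked member, had 14851 reads, or 112 RPM, under 5% O2 and 4407 reads, or 108 RPM, under 20% O2. Kdm5c had a log2 difference of 0.06 (interval of the read ratio 0.01 to 0.11) and took the other sign with each of the 3 other scalings. Kdm5a (chr6:120364124-120444574, plus strand, 14.2 kb of exons), first known as a partner of the retinoblastoma protein, had 8780 reads, or 66.4 RPM, and 2953 reads, or 72.2 RPM. The log2 difference of Kdm5a was -0.12 (interval -0.18 to -0.06) and stayed below 0, at -0.43 to -0.12, over the scalings. Kdm5b (chr1:134560171-134635285, plus strand, 16.6 kb of exons) had 4166 reads, or 31.5 RPM, and 1040 reads, or 25.4 RPM. For Kdm5b the log2 difference of 0.30 (interval 0.21 to 0.41) was 0.04 relative to the median gene and -0.01 with median-ratio scaling.

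The order within the KDM5 family was the same in both conditions. Per kilobase, Kdm5c had 15.8 RPKM under 5% O2 and 15.2 RPKM under 20% O2, Kdm5a 4.69 and 5.10 RPKM, and Kdm5b 1.90 and 1.54 RPKM. Kdm5c made up 70.6% and 69.5% of the family's summed level, Kdm5a 20.9% and 23.4%, and Kdm5b 8.50% and 7.05%. With the longest transcripts, the shares were 64.3% and 63.7% for Kdm5c and 13.3% and 11.1% for Kdm5b. The sums were 22.4 and 21.8 RPKM, against 121 and 140 RPKM for the 2 KDM1 genes. A ratio between members depends on no scaling factor, but its size depends on the length used. Kdm5a to Kdm5b was 2.46 under 5% O2 (interval 2.37 to 2.56) and 3.32 under 20% O2 (interval 3.09 to 3.57). Kdm5c to Kdm5a was 3.37 (interval 3.28 to 3.46) and 2.97 (interval 2.84 to 3.11). Over the longest transcripts, the former ratio was 1.68 and 2.26 and the latter 2.87 and 2.53.

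Kdm5d, the Y-linked paralogue of Kdm5c, which a female genome does not carry, had 5 reads under 5% O2 and 107 reads, or 2.62 RPM, under 20% O2. The longest run of bases that the exons of Kdm5c and Kdm5d share exactly is 27 bases, shown because it is the longest stretch in which reads of the paralogues cannot be told apart without a mismatch. Alignment with mismatches and the cause of the Kdm5d reads were not tested.
Kdm5c, chrX:152248521-152248547, and Kdm5d, chrY:916734-916760, plus strand: gctgactacttcaacatgcctgtgcat
Of the 100-base windows of the Kdm5c exons, 0% occur again in the genome.

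Over all 8 genes, the order of the levels per kilobase under 5% O2 was Kdm1b, Glyr1, Kdm1a, Kdm5c, Rcor1, Kdm5a, Kdm5b and Rcor3. In IV 20% O2 the order was the same except that Kdm5c, at 15.2 RPKM, came before Kdm1a, at 13.5 RPKM. The counting intervals of neighbours did not overlap in either condition, but the order of some neighbours depends on the length used. With the longest transcript, Kdm1a came before Kdm5c and Rcor3 before Kdm5b in both conditions, and Rcor1 and Kdm5a were both at 6.07 RPKM under 5% O2.

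For each gene, the 3 tested genes with the nearest pair of values were found, likeness being the larger of the 2 absolute differences on log2(RPM + 1) over the 2 conditions. Nearest to Kdm1a was Dhx8 at a distance of 0.03, with 125 and 68.9 RPM, followed by Hirip3 and Arap2. Nearest to Kdm1b were Ermp1 at 0.07, Ippk and the zona pellucida gene Zp1, which had 499 and 689 RPM. Tnfaip1, Zfx and C2cd2 were nearest to Rcor1, Ormdl2, Ogg1 and Znrd1as to Rcor3, and Tbc1d8, Scyl2 and Nectin3 to Glyr1. Uba6, Slc25a51 and Shroom3 were nearest to Kdm5a, Cr1l, AU016765 and Hdac6 to Kdm5b, and Dcun1d5, Cox7a2l and Gosr2 to Kdm5c.

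The other genes of these complexes were spread around the median gene. Of 18 listed KDM1 complex partners, 17 were in the table and 16 were tested, of which 3 were at least 2-fold higher under 5% O2 and 1 at least 2-fold lower, with a median log2 difference of 0.22, or -0.04 relative to the median gene. Over all genes these shares were 18.7% and 9.22%. The counts were 0 and 1 with a pseudocount of 5 RPM, 1 and 2 with median-ratio scaling, and 2 and 2 with the other 2 scalings. Hmg20b, a DNA-binding subunit of the CoREST complex, had 14.0 RPM under 5% O2 and 4.92 RPM under 20% O2, a log2 difference of 1.34. Snai1, a repressor whose SNAG domain docks in the KDM1A active site, had 26.8 and 11.0 RPM, a log2 difference of 1.22. Gfi1b, which carries the same kind of domain, was at 1.94 RPM against 0.122 RPM, the latter from 5 reads, and it passed the filter on low values only through the condition in which it was high. With a mean of at least 5 RPM, 2 partners were higher and 1 lower, against 15.7% and 8.53% of the 10755 genes tested. Zmym3, a zinc finger subunit, differed the other way, at 17.4 and 49.5 RPM, with a log2 difference of -1.46. Zfp217 was the most abundant of this list per kilobase, with 21.2 RPKM under 5% O2 and 18.9 RPKM under 20% O2.

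Of the 20 KDM5 partners, all tested, 2 were at least 2-fold higher under 5% O2 and 0 lower, with a median log2 difference of 0.16, or -0.10 relative to the median gene, against 18.7% and 9.22% of all genes. The 2 were Suds3, with 112 and 30.3 RPM and a log2 difference of 1.85, and Sap30, with 257 and 74.1 RPM and a log2 difference of 1.78. Both encode subunits of the SIN3 histone deacetylase complex. The deacetylase genes themselves, which stand in this list and in that of the KDM1 partners, were at 6.13 and 8.29 RPM for Hdac1 and at 98.7 and 58.3 RPM for Hdac2. Rbbp7, a histone chaperone, was the most abundant per kilobase with 299 and 225 RPKM.

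Tranylcypromine also inhibits monoamine oxidases, and the genes of these flavin enzymes were low. Maoa had 1.24 RPM under 5% O2 and 1.81 RPM under 20% O2, and Maob 5.67 and 6.80 RPM. Per kilobase, Maoa was at 0.298 and 0.434 RPKM and Maob at 2.03 and 2.44 RPKM, against the 96.4 and 127 RPKM of Kdm1b. Of the 5 other flavin amine oxidases, 0 were at least 2-fold apart in either direction (18.7% of all genes were higher and 9.22% lower), and their median log2 difference was -0.23. With each of the 3 other scalings, 1 was lower. Smox, the spermine oxidase gene, was the most abundant at 16.7 and 9.49 RPKM, with a log2 difference of 0.80, and Paox, which acts on acetylated polyamines, was at -0.93.

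Of the other JmjC demethylases, 19 of 20 were in the table and tested, with 1 at least 2-fold higher under 5% O2 and 3 lower, against 18.7% and 9.22% of all genes, and a median log2 difference of -0.07. With each of the 3 other scalings and with a pseudocount of 5 RPM, 0 were higher. The number lower was 4 with median-ratio scaling, 3 with upper-quartile scaling, 3 with quantile normalization and 1 with that pseudocount. The shares of all genes lower were 13.9%, 11.6%, 12.7% and 4.80% in that order of settings. Kdm3a, an H3K9 demethylase gene, had 27.0 and 12.0 RPM, a log2 difference of 1.11. The 3 lower genes were Kdm5d, which passed the filter on low values only through the condition in which it was high and without which 2 remain, Kdm6b, which removes H3K27 methylation, with 33.3 and 74.9 RPM and a log2 difference of -1.15, and Riox2 with 20.4 and 44.8 RPM and a log2 difference of -1.10. Kdm6a, the most abundant per kilobase, was nearly equal with 29.4 and 29.1 RPKM.

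The methyltransferases that place H3K4 methylation and the subunits of their complexes were taken from a list of 22 genes that also holds Kdm6a, a demethylase of these complexes counted among the JmjC genes too. Of these, 20 were tested, 1 was at least 2-fold higher under 5% O2, 2 were lower (18.7% and 9.22% of all genes) and the median log2 difference was -0.02. The number lower was 3 with upper-quartile scaling, 3 with quantile normalization, 4 with median-ratio scaling and 1 with a pseudocount of 5 RPM, while the share of all genes that was lower moved to 11.6%, 12.7%, 13.9% and 4.80% in that order of settings. Cxxc1, the CpG-binding subunit of the SETD1 complexes, had 85.1 RPM under 5% O2 and 26.5 RPM under 20% O2, a log2 difference of 1.65. Kmt2d, an enhancer H3K4 methyltransferase gene, had 77.9 and 285 RPM, a log2 difference of -1.86. Setd1b had 20.4 and 43.9 RPM, a log2 difference of -1.07. Wdr5, the shared core subunit, was the most abundant per kilobase at 111 and 80.0 RPKM. Of 13 genes that supply the cofactors, 11 were tested, with 1 at least 2-fold higher under 5% O2, 0 lower (18.7% and 9.22% of all genes) and a median log2 difference of 0.25. That gene was Idh1, which makes alpha-ketoglutarate in the cytosol, with 62.9 and 16.7 RPM and a log2 difference of 1.85. Glud1 was the most abundant of these per kilobase with 25.5 and 29.8 RPKM.

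**Figure D4:**
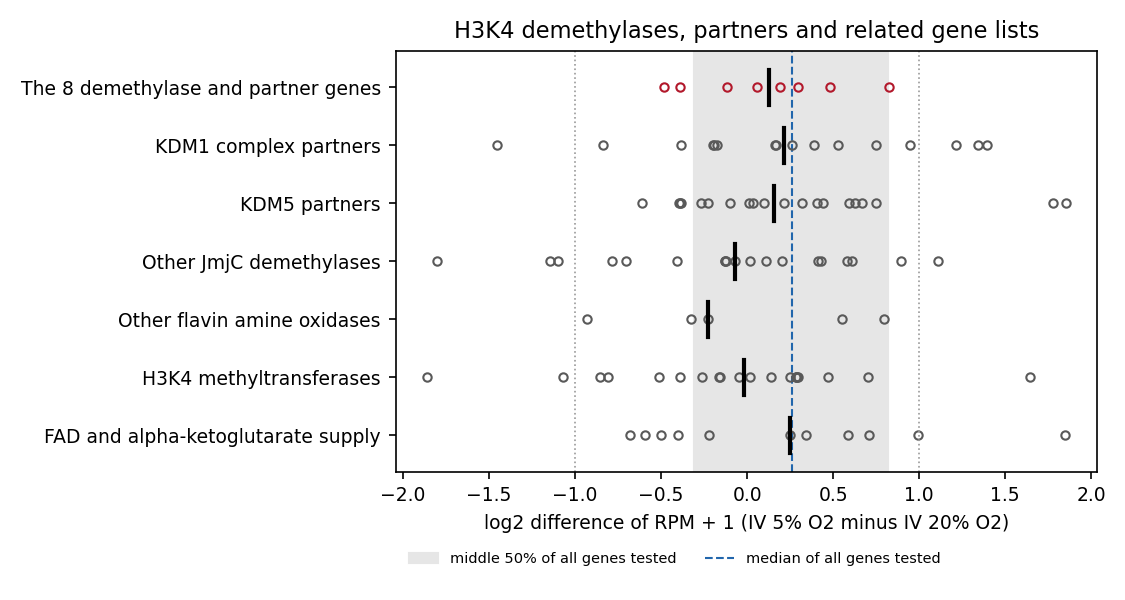
Each circle is the log2 difference of RPM + 1 (IV 5% O2 minus IV 20% O2) of a gene with a mean of at least 1 RPM, black bars are list medians, the grey band is the middle 50% of all genes tested (-0.31 to 0.82) and dotted lines mark 2-fold. The 8 demethylase and partner genes run from -0.49 to 0.83, and their median is at 0.13, beside 0.26 for the median gene.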

How the data were processed

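RNA-seq of class IV oocytes (2 libraries per condition) was analysed, and the bisulphite libraries were not. Reads were aligned to GRCm38 with TopHat2 2.0.9, per the submitters' processing notes. The study's methods describe quantification in SeqMonk over an oocyte-specific annotation. Of the 16591 rows, however, 16055 equal a gene of GENCODE M21 exactly in name and coordinates. The exons over which reads were counted are not stated for these rows. The authors deposited log2 values, 1 column per condition, and how the libraries were combined is not given in the sources used here. The values are named RPKM, but 99.98% of them in each column were whole multiples (within 0.1 read) of the value of 1 read, so they were read as RPM without length correction. The table gives genes without reads the value of 0.9 read, which was replaced by 0. 1 value column belongs to no mapped sample and was not used. The implied depth is 132185258 reads for IV 5% O2 and 40875359 for IV 20% O2, a ratio of 3.23. The latter column therefore has the wider counting intervals. Summed over all rows, the reads were 109629353 and 29754908, a smaller share of the depth for IV 20% O2. The effect of this share on the differences as deposited was not tested. The upper limit at a count of 0 was taken as 3 reads (0.0227 and 0.0734 RPM). Reads carry no molecular identifiers. The study's methods describe paired-end sequencing, and whether both reads of a pair were counted is not stated. If both were counted, the counting intervals are too narrow.

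Differences were taken on log2(RPM + 1), which understates the change of low genes, for genes whose mean over the conditions was 1 RPM or more. For the 18 names with several rows, the row with the highest mean was used. Pooled columns allow no test, so genes at least 2-fold apart were counted. Intervals are Clopper-Pearson for ratios and exact Poisson for the level of a single gene. Those of the change of a ratio between 2 genes were computed on the log scale from the variance of the reads. Exonic lengths came from GENCODE M21, whose coordinates equal those of all 8 rows, and promoters from RefSeq. Exonic windows of 50 and 100 bases, every 10 bases, were searched in the genome. The genes and lists were chosen with earlier results of these data known. Genes named from a list are those past 2-fold (at most 4 per direction) and the most abundant per kilobase. Others (Rcor2, Hdac1, Hdac2, Maoa, Maob, Paox and markers) were chosen after their values were seen. Alternatives were pseudocounts of 0.1 and 5, no filter or a mean of at least 5 RPM, rows summed, the 3 other scalings and the longest transcript. The scripts were tested on simulated data. The software was matplotlib 3.10.9, numba 0.67.0, scipy 1.17.1, pandas 2.3.3 and numpy 2.4.6 under Python 3.11.15.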

Additional observations from a re-analysis of the deposited data

How the results depend on the processing

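No paired analysis was possible because the table holds 1 pooled column per condition, without replicate numbers, and leaving out a replicate was not run for the same reason. The pooled columns and the shallower IV 20% O2 column limit the precision. No setting brought any of the 8 genes past 2-fold in either direction. Scaling by a single factor shifts all differences in the same direction by construction. With the median-ratio and upper-quartile factors estimated from these data, that direction was downward. With median-ratio scaling, Rcor3 was at -0.11, Kdm5b at -0.011 and Kdm5c at -0.26, the median of the 8 genes at -0.18, and the medians of the KDM1 partners, KDM5 partners and cofactor genes at -0.14, -0.16 and -0.041. The same scaling left 1 KDM1 partner at least 2-fold higher and 2 lower. It left 0 JmjC genes higher and 4 lower, 1 flavin oxidase lower and 4 genes of the H3K4 methyltransferase list lower. With upper-quartile scaling, Kdm5c was at -0.12, the median of the 8 genes at -0.044, and the medians of the KDM1 and KDM5 partners at -0.0030 and -0.018. Quantile normalization gave -0.12 for Kdm5c and -0.043 for the median of the 8 genes, and the cause was not tested. Under both of these, 2 KDM1 partners and 1 flavin oxidase were lower and 0 JmjC genes higher. A pseudocount of 0.1 gave 2 cofactor genes higher. A pseudocount of 5, which shrinks differences of low genes by construction, gave 0 KDM1 partners and 0 JmjC genes higher, and 1 JmjC gene and 1 gene of the H3K4 methyltransferase list lower. A mean of at least 5 RPM moved the median of the H3K4 methyltransferase list to 0.014, with fewer genes tested. The longest transcript gave ratios of Kdm1b to Kdm1a of 2.57 and 6.02. Under the 3 other scalings, every log2 difference of the 8 genes moved beyond its counting interval, 19 of these values with the same sign and 5 with the other sign. Summing rows cannot move them, since each gene has 1 row.

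Over all genes, a pseudocount of 0.1 gave 3326 genes higher and 1625 lower, and a pseudocount of 5 gave 1202 and 706, against 2753 and 1356. Median-ratio scaling gave 1700 and 2031.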

Other observations

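Kdm5d was not the only row of the Y chromosome with reads. Gm21244 had 3 reads in IV 5% O2 and 65 reads in IV 20% O2, Gm20826 had 1 and 130 reads, and Gm47283 had 56 and 175 reads. Gm47283 lies in the pseudoautosomal end of the Y chromosome, which the X chromosome shares, so its reads do not mark a Y chromosome. All 4 rows, Kdm5d included, had more reads in IV 20% O2, which has the lower depth, and the cause was not tested. These rows were chosen after their values were seen. Of the 100-base windows of the Kdm5d exons, 1.33% occur again in the genome.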
